A study of Mus musculus with 2 samples.

Results

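The DNA replication machinery is described here by 46 genes in mouse erythroid cells. The members were taken as the rows whose Ensembl gene identifier maps to 1 of 46 listed symbols, a rule that looks up names and uses no measured value. The list of symbols was, however, drawn up with earlier results of these data known. Shares of members set beside a background are therefore descriptions only. All 46 were found among the 43346 rows that carry an Ensembl gene identifier. Polyadenylated RNA was sequenced from G1E-ER4 cells, an immortalized erythroid line derived from Gata1-null mouse cells in which a hormone-activated GATA-1 fusion protein restores GATA-1 function. The cells had been kept for 24 hours in 10 nM 17beta-estradiol, which starts erythroid differentiation. Both libraries, biological replicates 1 and 2, belong to this 1 induced group, the labels call the line male, and no uninduced library was analysed here. The values are therefore levels in induced cells, none can be read as a response to the hormone, and no p-value is given. Each mean is given with the SD of the 2 libraries (n = 2 throughout). The labels do not say whether the replicates came from separate inductions, so this spread may be technical.

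The libraries held 20412826 and 18564086 expected counts, and the members between 166 and 16463 in either library, so counting error was small beside the differences between genes. The markers fit the labelled cell type. Of the erythroid genes, Hbb-bs, Hba-a2, Alas2, Slc4a1, Klf1 and Epor lay between 92.5 and 69726 TPM, and T cell, B cell, granulocyte, mast cell and fibroblast markers between 0 and 0.440 TPM. Markers of dividing cells were present, with Mki67 at 320 and 282 TPM, Top2a at 340 and 316 TPM and Ccna2 at 180 and 149 TPM. In bulk RNA, fewer replicating cells and less RNA per cell cannot be told apart.

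Replication of DNA starts from origins that are prepared in advance. The origin recognition complex, CDC6 and CDT1 load the MCM2-7 helicase as a ring around DNA in G1 phase, and geminin blocks CDT1 afterwards so that no origin is loaded again in the same cycle. Kinases, CDC45 and GINS then turn the helicase on, polymerase alpha-primase starts each new strand, polymerases epsilon and delta extend it, and a nuclease and a ligase join the pieces of the lagging strand. Many of these genes are textbook targets of the E2F transcription factors. Erythroid precursors are known for rapid divisions during maturation.

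All 46 members were detected, that is, at 1 TPM or more in both libraries. TPM, a measure of transcript abundance, divides reads by transcript length and scales each library to the same total. The same rule detected 24% of all genes and 41.2% of the 21474 protein-coding genes. The member median was 61.3 and 63.2 TPM in replicates 1 and 2, and the median over detected protein-coding genes was 20.8 TPM in the mean of both libraries. Of the members, 16 reached 100 TPM in both libraries (background 13.4% of detected protein-coding genes). The 46 genes together held 0.515% ± 0.0069 of all TPM.

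**Figure D1:**
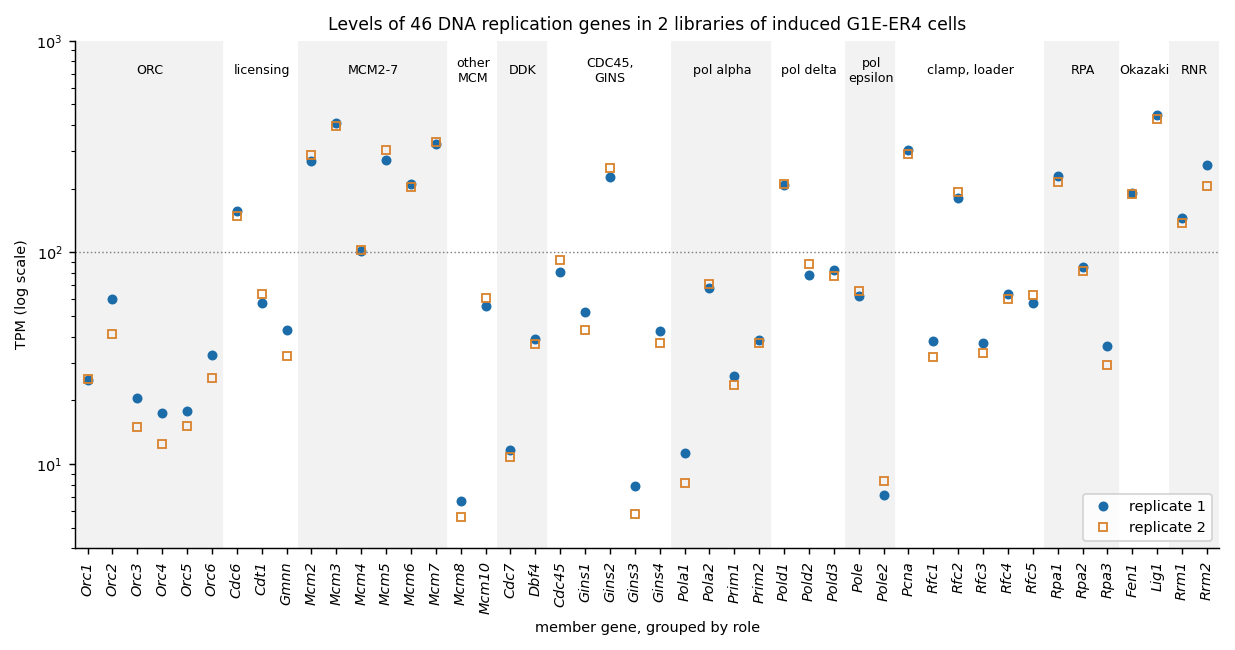
TPM (log scale) of each of the 46 members in both libraries, replicate 1 as filled circles and replicate 2 as open squares, grouped by role; the dotted line marks 100 TPM. Genes of the MCM2-7 helicase lie at or above the line in both libraries, and all 6 genes of the origin recognition complex (ORC) lie below it.

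**Figure D2:**
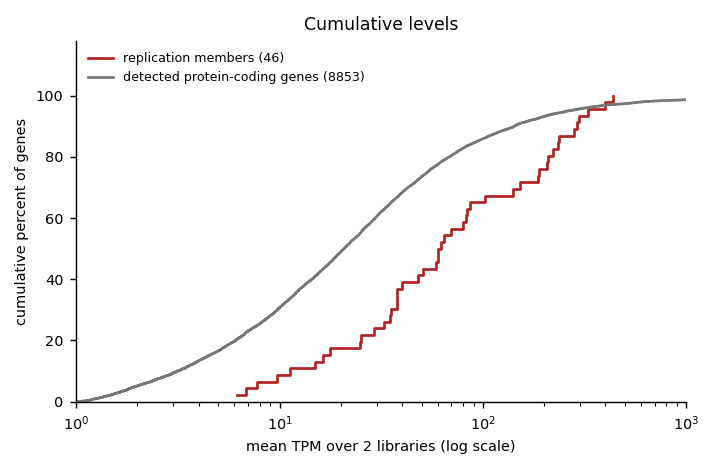
Cumulative percent of genes against mean TPM over 2 libraries (log scale) for the 46 members and the 8853 detected protein-coding genes. The member curve lies to the right over most of the range, with medians of 61.3 and 20.8 TPM.

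By gene level, the order ran from Lig1 at 437 ± 13.3 TPM to Mcm8 at 6.16 ± 0.735 TPM, a 71.01-fold range. After Lig1 came Mcm3, Mcm7, Pcna, Mcm5, Mcm2 and Gins2, and above Mcm8 at the lower end stood Gins3, Pole2, Pola1, Cdc7 and Orc4. Of the 45 pairs of neighbours in this order, 29 had overlapping replicate values, so only the other 16 steps exceeded the spread. Lig1, Mcm3 and Mcm7 were each apart from the next gene, whereas the replicate values of Pcna overlapped those of Mcm5, and those of Mcm5 overlapped those of Mcm2. The order was another one on transcripts annotated as protein-coding, where Mcm3 was highest at 334 TPM (mean), followed by Pcna at 295, Mcm5 at 290.1, Mcm2 at 280.4, Lig1 at 279.7 and Mcm7 at 236 TPM. There Gins2, at 6.39 TPM, was among the lowest members, beside Mcm8 at 5.36 and Orc3 at 5.35 TPM. The coding value of Lig1 lay mainly on transcripts of 1053 and 944 bases, so its place in that order is uncertain. The place of Gins2 is uncertain too. Of its 4510 and 4784 expected counts, 401 and 357 were assigned, by estimate, to its coding transcript.

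Promoter sequence was examined because E2F control is known for this gene family. RefSeq promoter windows (GRCm38.p6, the assembly of the files), from 250 bases before to 50 bases after an annotated start, were held for 38 members. Entries for Mcm4, Gmnn, Gins1, Gins2, Gins4, Prim2, Pole and Rfc2 were missing. The last 30 bases of 40 of the 47 member windows lay in a GENCODE transcript of the gene. The E2F words searched, on both strands, were TTTCCCGC, TTTCGCGC, TTTGCCGC and TTTGGCGC, and matches that shared bases were merged into 1 site. Such a word lay in a window of 16 of the 38 members (42.1%), against 5.46% of 7075 detected protein-coding genes and 2.61% of all 27025 genes with a window. The median GC content of the windows was 62.3% for members and 61.3% for detected protein-coding genes, so the medians were close. With only the bases before the start, the shares were 23.7% of members, 4.49% of detected protein-coding genes and 2.16% of all genes.

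The stretches below belong to the 8 most abundant members with an E2F word, and show how the words are placed. For members with a word upstream, the 170 bases before the RefSeq start are printed, and for words after that start a stretch of 30 bases. The stretches before the start of Mcm7 and Cdc6 lie inside the GENCODE bounds of these genes, so they are upstream of the RefSeq start only. All are written on the strand of the gene from 5′ to 3′, with the words in capitals, which are reversed copies where they read GCGGGAAA or GCGCGAAA.
Mcm6 upstream (chr1:128359706-128359875, minus strand): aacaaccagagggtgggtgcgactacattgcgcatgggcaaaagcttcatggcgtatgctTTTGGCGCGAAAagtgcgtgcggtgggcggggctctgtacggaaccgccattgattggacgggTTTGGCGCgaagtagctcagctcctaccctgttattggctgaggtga
Mcm5 upstream (chr8:75109339-75109508, plus strand): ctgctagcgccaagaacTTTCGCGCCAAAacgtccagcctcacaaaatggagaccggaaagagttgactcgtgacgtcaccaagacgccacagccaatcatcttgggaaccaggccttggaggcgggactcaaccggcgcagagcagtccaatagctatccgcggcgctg
Mcm7 upstream (chr5:138171884-138172053, minus strand): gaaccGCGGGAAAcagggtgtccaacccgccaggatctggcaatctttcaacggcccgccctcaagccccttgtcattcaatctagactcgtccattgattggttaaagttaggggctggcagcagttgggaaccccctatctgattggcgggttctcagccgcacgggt
Cdc6 upstream (chr11:98907981-98908150, plus strand): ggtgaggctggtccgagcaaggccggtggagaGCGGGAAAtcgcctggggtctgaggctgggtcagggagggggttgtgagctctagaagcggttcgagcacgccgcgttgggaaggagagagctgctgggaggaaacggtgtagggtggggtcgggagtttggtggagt
Mcm7 after the start (chr5:138171849-138171878, minus strand): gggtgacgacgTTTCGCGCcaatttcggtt
Mcm3 after the start (chr1:20820266-20820295, minus strand): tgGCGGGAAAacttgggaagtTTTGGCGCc
Lig1 after the start (chr7:13278841-13278870, plus strand): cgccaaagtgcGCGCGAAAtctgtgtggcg
Pold1 after the start (chr7:44548766-44548795, minus strand): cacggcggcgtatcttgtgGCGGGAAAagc
Pold3 after the start (chr7:100121467-100121496, minus strand): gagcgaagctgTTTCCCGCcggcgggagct

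In Mcm5 and Mcm6 a pair of E2F words overlapped to form a 12-base site. The Mcm5 site TTTCGCGCCAAA is the exact reverse complement of the Mcm6 site TTTGGCGCGAAA, so both promoters hold the same double-stranded element in opposite orientation. On either strand this element occurred in 4 of the 27025 genes with a window, the others being Msh3 and Mycn. Mcm3, Mcm6, Mcm7 and Rfc3 each held 2 separate sites. Of the 20 sites, 10 were centred before the RefSeq start, 5 of them within 100 bases of it, and 10 after it.

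**Figure D3:**
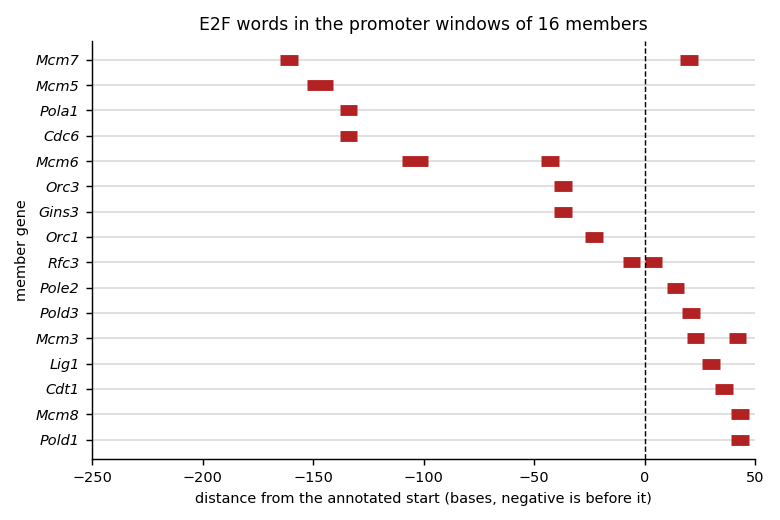
Position of E2F words (red bars) in the promoter windows of the 16 members that hold one, in bases from the RefSeq start (dashed line). Of the 20 sites, 10 are centred before the start and 10 after it.

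Shares of the other words differed less between members and detected protein-coding genes. CCAAT, the core of the NF-Y element, lay in 24 of the 38 members (63.2%), against 44.6% of detected protein-coding genes and 41.1% of all genes. The Sp1 word GGGCGG was in 76.3% of members and in 72.3% of detected protein-coding genes. The CHR word TTTGAA was in 18.4% of members and 13.9% of detected protein-coding genes. GATA words (GATAA or GATAG after an A or a T) were in 6 members (15.8%), namely Cdc45, Fen1, Mcm7, Orc2, Pola1 and Pold2, against 20.9% of detected protein-coding genes. A match describes the letters alone. Members with and without an E2F word had levels that overlapped widely, with a median of 70.2 TPM and a range of 6.16 to 437 TPM in the 16 with a word, and a median of 61.2 TPM and a range of 11.2 to 297 TPM in the 22 without.

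The MCM2-7 helicase genes were abundant, with all 6 subunits above 100 TPM in both libraries. Mcm3, on chromosome 1 from 20802968 to 20820312, stood at 408 and 394 TPM in replicates 1 and 2, and Mcm7, on chromosome 5 from 138164583 to 138172422, at 325 and 331 TPM. Mcm5 had 274 and 306 TPM, and Mcm2 had 271 and 289 TPM. The ranges of Mcm5 and Mcm2 overlapped, while Mcm3 and Mcm7 were above both in each library by gene level. On coding transcripts Mcm3 stayed above both, with 323 and 344 TPM, but Mcm7, with 241 and 232 TPM, was below both in each library. Mcm6 followed at 209 and 205 TPM, and Mcm4 was the lowest at 102 and 103 TPM. The helicase holds 1 copy of each subunit, and their mRNA levels were unequal beyond the spread, with Mcm3 over Mcm4 by 1.97 ± 0.05 on the log2 scale. The promoters of Mcm3, Mcm5, Mcm6 and Mcm7 are those printed above.

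The other proteins named MCM were lower. Mcm10, which helps to activate the loaded helicase, stood at 56.0 and 61.2 TPM. On coding transcripts Mcm10 averaged 22.85 TPM, with 43.4% and 34.9% of its level there. Mcm8, which forms a complex with MCM9 in homologous recombination, had 6.68 and 5.64 TPM, the lowest mean of all members by gene level. Its partner gene Mcm9 was lower still at 1.13 and 0.95 TPM.

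The origin recognition complex, which marks origins, was far below the helicase it loads. The MCM2-7 median exceeded the Orc1 to Orc6 median by 3.73 ± 0.21 on the log2 scale, with 3.59 in replicate 1 and 3.88 in replicate 2. By gene level Orc2 was the highest at 60.2 and 41.0 TPM, then Orc6 at 32.9 and 25.6 TPM and Orc1 at 24.9 and 25.2 TPM. Orc2-205, a 370-base transcript annotated as coding, held 51.8% and 48.9% of the Orc2 level. Orc2-201, of 3561 bases, had 28.9 and 20.9 TPM, below Orc6 in both libraries. Orc3 had 20.5 and 15.0 TPM, Orc5 17.8 and 15.1 TPM, and Orc4 17.4 and 12.5 TPM. The ranges of these last 3 genes overlapped, so their order is not resolved by gene level. On coding transcripts Orc3 was the lowest of the 3, averaging 5.35 TPM against 9.90 TPM for Orc4 and 16.3 TPM for Orc5. Much of the Orc4 value lay on Orc4-209, a transcript of 383 bases, at 5.49 and 5.54 TPM. Orc4-201, of 4066 bases, had 1.60 and 0.97 TPM, below Orc3-201 at 5.58 and 3.65 TPM. Reads are divided among overlapping transcripts by estimate, and the order of Orc3 and Orc4 is not resolved by coding transcripts either. Orc1, with nearly equal values in both libraries, alone of the 6 was not higher in replicate 1.

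Of the factors that act in helicase loading, Cdc6 lay within the range of the MCM2-7 genes, and Cdt1 and Gmnn lay below that range. Cdc6, which encodes the ATPase that joins ORC at origins, stood at 156 and 148 TPM. Cdt1, which brings MCM2-7 to the origin, had 57.6 and 63.3 TPM, and Gmnn, which encodes its inhibitor geminin, 43.1 and 32.3 TPM. Cdc6 exceeded Orc1, the subunit it resembles, by 2.60 ± 0.07 on the log2 scale. Cdt1 exceeded Gmnn by 0.42 in replicate 1 and 0.97 in replicate 2 on the log2 scale, the same direction but an unequal size.

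The kinase that fires origins had its subunit genes at unequal levels. Dbf4, the activating subunit, stood at 38.8 and 37.1 TPM, and the catalytic Cdc7 at 11.6 and 10.8 TPM. The difference of 1.76 ± 0.02 on the log2 scale was far above the spread between the libraries.

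CDC45 and the 4 GINS proteins complete the active helicase. Cdc45 stood at 81.0 and 92.1 TPM, close below Mcm4. The GINS complex also holds 1 copy of each subunit, and its genes were listed at very unequal levels. Gins2 was listed at 226 and 251 TPM, Gins1 at 52.6 and 43.2 TPM, Gins4 at 42.4 and 37.5 TPM and Gins3 at 7.88 and 5.83 TPM. Most of the Gins2 value was not assigned to coding mRNA. Only 2.86% and 2.52% of it lay on Gins2-201, the coding transcript, and 67.3% of its exon bases are also exon bases of Gse1 on the opposite strand. Reads are divided among its overlapping transcripts by estimate, so the coding level of Gins2 is uncertain. On coding transcripts alone, Gins2 averaged 6.39 TPM and Gins3 6.86 TPM, so the excess of Gins2 over Gins3, 5.13 ± 0.41 on the log2 scale by gene level, was not seen there.

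Polymerase alpha-primase makes the short primers of both strands. Pola2, the accessory subunit, stood at 67.8 and 71.0 TPM, and Pola1, the catalytic subunit, at 11.3 and 8.18 TPM. The primase genes Prim2 and Prim1 lay between them, with 38.6 and 37.4 TPM for Prim2 and 26.2 and 23.8 TPM for Prim1. No range of 1 of the 4 genes overlapped that of another.

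The catalytic subunit gene of polymerase delta, which extends the lagging strand, was above that of polymerase epsilon, which extends the leading strand. Pold1 had 207 and 211 TPM and Pole 62.3 and 66.0 TPM, a log2 ratio of 1.70 ± 0.04. That ratio was 1.20 on coding transcripts alone and 0.26 from expected counts, which are not divided by length. Pold2 stood at 77.9 and 87.8 TPM and Pold3 at 82.5 and 77.5 TPM, with overlapping ranges by gene level, but on coding transcripts Pold2 averaged 52.9 TPM and Pold3 13.4 TPM. Pole2, the second subunit of polymerase epsilon, was low at 7.13 and 8.29 TPM. The small subunits outside the member list, Pold4 at 43.0 and 45.5 TPM, Pole3 at 103 and 83.8 TPM and Pole4 at 25.4 and 21.5 TPM, were all above Pole2.

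Pcna, which encodes the ring-shaped clamp that tethers polymerases, was among the highest members at 303 and 292 TPM. Its loader is built from 5 subunits. Rfc2 stood apart from the other 4 at 181 and 192 TPM, with Rfc4 at 63.8 and 60.4 TPM, Rfc5 at 57.5 and 63.1 TPM, Rfc1 at 38.0 and 31.9 TPM and Rfc3 at 37.2 and 33.7 TPM. Rfc4 and Rfc5 overlapped, as did Rfc1 and Rfc3. On coding transcripts Rfc4 averaged 17.7 TPM, below Rfc5 at 30.8 TPM and Rfc3 at 28.15 TPM.

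RPA, the protein that coats single-stranded DNA, has 3 subunits in equal number. Rpa1 had 230 and 214 TPM, Rpa2 had 85.2 and 81.7 TPM, and Rpa3 had 36.1 and 29.5 TPM. Rpa1 exceeded Rpa2 by 1.41 ± 0.03 on the log2 scale. A retained-intron transcript of 716 bases held 50.9% and 49.0% of Rpa1, and on coding transcripts Rpa1 averaged 110 TPM.

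The genes that join lagging strand pieces were abundant. Lig1, which encodes the sealing DNA ligase, stood at 447 and 428 TPM, and Fen1, which encodes the flap nuclease that trims them, at 190 and 189 TPM. Lig1 over Fen1 was 1.21 ± 0.04 on the log2 scale. Lig1 was divided among 12 listed transcripts, with 66.5% and 61.3% on coding ones. Most coding TPM lay on transcripts of 1053 bases, at 146 and 109 TPM, and 944 bases, at 124 and 128 TPM. The coding forms of 3091 and 3166 bases had 15.8 and 5.46 TPM, and 10.9 and 8.48 TPM, in turn. A transcript of 3054 bases not annotated as coding had 70.5 TPM in replicate 1 and 0 in replicate 2. Another, of 2968 bases, had 74.8 and 162 TPM. The split of Lig1 among transcripts was thus unstable between libraries, and its coding level is uncertain. Fen1 shares 78.8% of its exon bases with Gm10143, an antisense gene model on the opposite strand that was listed at 2.54 and 3.14 TPM.

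Ribonucleotide reductase makes the deoxyribonucleotides used by the polymerases. Rrm2, the small subunit made mainly in S phase, stood at 260 and 207 TPM and Rrm1, the large subunit, at 145 and 137 TPM. The log2 ratio of Rrm1 over Rrm2 was -0.72 ± 0.18, but from expected counts it was 0.32, which keep the greater length of the Rrm1 transcripts, 3997 bases against 1943 for Rrm2. Rrm2 exceeded Rrm2b, the p53-induced small subunit at 3.67 and 2.31 TPM, by 6.32 ± 0.24 on the log2 scale.

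The gene levels above combine coding and other transcripts, and the members differed in how much of the level was coding. In 25 members over 90% of TPM lay on transcripts annotated as protein-coding in both libraries (background 58.5% of detected protein-coding genes), and in 9 the share was under 50% in at least 1 library (background 17%). Both counts were near the background. Beside Gins2 the lowest were Pold3 at 17.3% and 16.1%, Rfc4 at 33.9% and 22.8% and Orc3 at 28.1% and 32.8%. In Rfc4, a 416-base transcript annotated for nonsense-mediated decay held 65.7% and 76.4%. In Pold3, a 487-base retained-intron transcript held 39.2% and 45.3%. Such short transcripts gain TPM through division by length, since Pold3-201, the coding form, had the larger expected count of 695 and 554, against 234 and 232 for the short one. For Rfc1 the share is not informative, since 6 of its 7 listed transcripts are not in the annotation release used for classes. The leading transcript was the same in both libraries in 43 members and differed in Orc2, Rpa1 and Lig1. On coding transcripts alone the member median was 40.4 TPM.

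**Figure D4:**
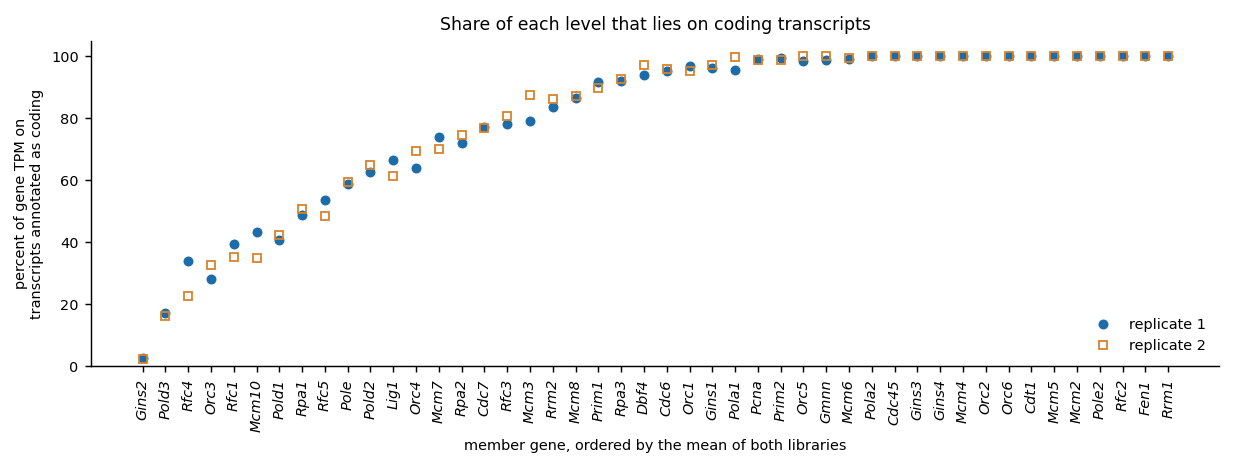
Percent of each member's TPM that lies on transcripts annotated as protein-coding, replicate 1 as filled circles and replicate 2 as open squares, ordered by the mean of both libraries. Gins2 is lowest at 2.86% and 2.52%, and 25 members are above 90% in both libraries.

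Some reads of the members may fit other genes. In 29 members over 95% of the 36-base windows of their transcripts were unique to the gene, and in Fen1 (21.1%) and Gins2 (34.0%) under 50% were. Exon bases were shared with a gene on the opposite strand in 13 members, among them Orc2 with Nif3l1 (29.8%), Rfc2 with Lat2 (15.1%), Rfc4 with Eif4a2 (12.7%) and Rfc5 with Wsb2 (10.7%). Whether strand entered the counting is not stated, so reads of such pairs may not be told apart. Processed pseudogenes matched 22.1% of Pcna windows (Pcna-ps2, at 22.02 and 17.9 TPM) and 21.9% of Mcm7 windows (Gm5487, not analysed here). The levels of these genes are uncertain to that extent.

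None of the members differed over 1.5-fold between the libraries in TPM, against 4.27% of detected protein-coding genes, and the SD was under 10% of the mean in 32 of 46, against 62% of detected protein-coding genes. More members were higher in replicate 1 than in replicate 2, namely 30 of 46, against 49.6% of detected protein-coding genes. Among the ORC genes 5 of 6 were higher in replicate 1. Orc2 showed the largest difference of all members in TPM, at 1.47-fold. In CPM of expected counts Orc2 was 1.39-fold apart, with an exact 95% Clopper-Pearson interval of 1.3 to 1.5 that covers counting error only. By CPM the difference of Orc4 was larger, at 1.46-fold with an interval of 1.2 to 1.78.

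The differences went with base composition. Across the 46 members, the log2 ratio of replicate 1 over replicate 2 had a Spearman rho of -0.58 and a Pearson r of -0.56 with the GC content of the transcripts. Across 8846 detected protein-coding genes rho was -0.45 and r -0.38, and all points share the same 2 libraries. In the 23 members of lower GC content, 20 were higher in replicate 1, with a median log2 ratio of 0.23, and in the 23 of higher GC content, 10 were, with a median of -0.03. Orc3, Orc4, Orc5 and Orc6 were between 42.7% and 45.1% GC, and Orc2 at 51.5% was also higher in replicate 1. Orc1, at 46.8% among the 23 of lower GC content, was not. GC content is weighted by TPM here, and the 370-base Orc2-205 held 51.8% and 48.9% of the Orc2 level. That transcript had 168 and 98 of the 1805 and 1177 expected counts of Orc2, so the GC value of Orc2 leans on it. The part of GC content in these differences was not tested.

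**Figure D5:**
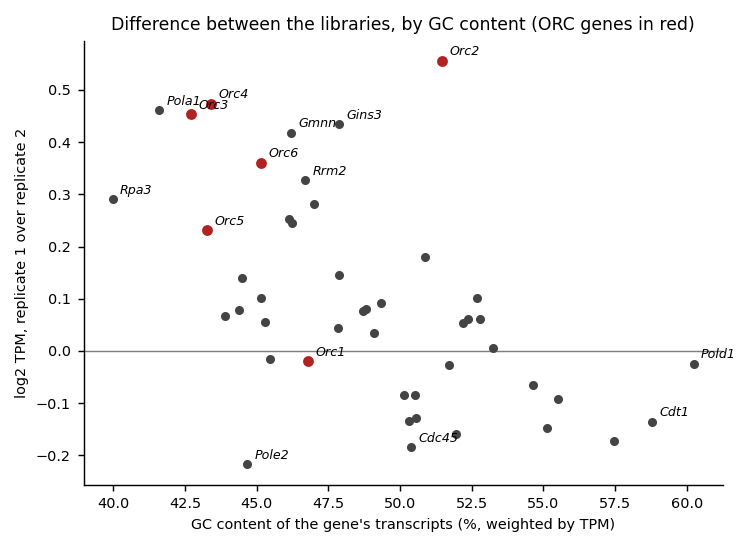
Log2 TPM ratio of replicate 1 over replicate 2 against the GC content of the gene's transcripts (percent, weighted by TPM) for the 46 members, with the 6 ORC genes in red. Members of low GC content lie mostly above 0, and Orc2 has the highest ratio.

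Of a wider list of 40 further replication genes, 39 were detected in both libraries (background 41.2% of protein-coding genes). Of the list, 10 reached 100 TPM in both (background 13.4% of detected protein-coding genes). The median was 51.1 ± 3.25 TPM, against 20.8 TPM over detected protein-coding genes. The highest were Rnaseh2a, a subunit of the nuclease that removes ribonucleotides, at 360 and 385 TPM, Top2a, Ssrp1 of the FACT histone chaperone at 256 and 237 TPM, and the maintenance methyltransferase gene Dnmt1 at 195 and 208 TPM. The lowest were Mcm9, which missed detection in replicate 2, Rrm2b and Dscc1, of an alternative clamp loader, at 7.02 and 5.19 TPM. Ticrr, which helps to load CDC45, had 37.4 and 40.5 TPM, and Mcmbp, which encodes an MCM-binding protein, 19.0 and 20.2 TPM.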

How the data were processed

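Per the file headers and deposited manifests, reads were quantified per library on mm10 with GENCODE M4, with the aligner and quantifier not given in the sources used here. The deposited gene and transcript tables hold an expected count, which is an estimate that need not be whole, and TPM, which the authors scaled to a common total per library. They also hold a posterior mean TPM, and the deposited transcript tables add each transcript's share of its gene in percent. Symbols, transcript classes and coordinates came from GENCODE M21 on the same assembly, by which 42462 of 43346 identifiers have a symbol. The 26345 rows without an Ensembl identifier were left out. Python 3.11.15 was used, with edgeR 4.0.16 in R 4.3.3 for TMM scaling of rounded expected counts. The 2 libraries form 1 group, so no test between conditions was possible. GC content is weighted by TPM over transcripts. Alternatives covered the value used, the transcripts summed, thresholds, scaling and each replicate left out.

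Members are found by name, but the list of names, like the other gene lists, ratios and thresholds, was drawn up with earlier results of these data known. All members were named. Of the wider list the complex partners, the 4 highest and the 3 lowest were named, and other genes because they overlap or neighbour a member. A planned search for protein motifs was not run, since protein sequences were not used here. A count of 0 allows up to 3 counts, which is 0.147 CPM in replicate 1 and 0.162 CPM in replicate 2.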

Additional observations from a re-analysis of the deposited data

How the results depend on the processing

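Detection of all 46 members held at 5 TPM and with posterior mean TPM. At 0.5 TPM and with either library alone it had to hold, since all 46 passed 1 TPM in both libraries. Of 71 alternative values, 50 stayed within 1 SD or, for counts of genes, within 1.5 times the reported count, 20 moved further and 1 reversed. Some of the 50 could not move. Ratios and the median with either library alone lie within the SD by construction, and a limit to members at 1 TPM or more keeps all 46. Counts of genes with either library alone or at a lower threshold could not fall. For the median log2 ratio between replicates, the SD was that across members. From expected counts, Rrm1 over Rrm2 reversed to 0.32 on the log2 scale, because no length is divided out. The other log2 ratios moved by counts were 4.30 for the MCM2-7 over the ORC median, 1.92 for Cdt1 over Gmnn, 0.26 for Pold1 over Pole, 1.32 for Dbf4 over Cdc7, and 1.52 and 2.80 for the highest over the lowest MCM2-7 and ORC gene. With posterior mean TPM, Rrm2 over Rrm2b was 5.87, Dbf4 over Cdc7 1.71, the ORC range 1.65 and the member median 59.1 TPM. On coding transcripts, Rrm1 over Rrm2 was -0.48, Rrm2 over Rrm2b 6.58, Pold1 over Pole 1.20, Dbf4 over Cdc7 2.07, the MCM2-7 range 1.71 and the ORC range 3.22, the member median was 40.4 TPM, and 1 member, Rfc4, was over 1.5-fold apart. The cause of these shifts was not tested. Short transcripts annotated as coding, such as Orc2-205, stay in the coding values. After the data were seen, 7 members with over 10% opposite-strand exon overlap were left out, which gave a median of 60.5 TPM and 13 at 100 TPM or more, and E2F words before the start alone gave 9 members. With either library alone, where a ratio lies within the SD by construction, MCM2-7 over ORC ran from 3.59 to 3.88, Cdt1 over Gmnn from 0.42 to 0.97, Rrm1 over Rrm2 from -0.84 to -0.59, Rrm2 over Rrm2b from 6.15 to 6.49, Pold1 over Pole from 1.68 to 1.73, and the median from 61.3 to 63.2 TPM. No paired analysis was possible because there is 1 group. With 2 libraries, the SD itself is imprecise.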

Other observations

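Several members start close to another gene. Of the 46, 14 (30.4%) have a protein-coding gene on the opposite strand that starts within 1000 bases, against 20.8% of detected and 10.9% of all protein-coding genes. The member was higher than its neighbour in both libraries in 11 of 14 pairs with values. The same share was not computed for other genes. The member median of 61.3 TPM was above the 20.8 TPM of detected protein-coding genes, so the count is not read as a trait of these pairs. Mcm4 lies 466 bases from the start of Prkdc, the DNA-dependent protein kinase gene, and stood at 102 and 103 TPM against 4.62 and 3.80 TPM for Prkdc. Dbf4 lies 134 bases from Slc25a40, a mitochondrial carrier gene, at 38.8 and 37.1 TPM against 4.68 and 3.71 TPM. The neighbour was higher for Mcm8, Orc1 and Orc6. Orc1, 87 bases from the splicing factor gene Prpf38a, had 24.9 and 25.2 TPM against 54.8 and 55.3 TPM. Fen1 and Tmem258 were close in level, at 190 and 189 TPM for Fen1 and 175 and 165 TPM for Tmem258. These genes were chosen after their values were seen.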
